A study of Homo sapiens with 29 samples.

Results

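KD is PC9, a human lung adenocarcinoma line with an activating EGFR mutation, in which AXL was knocked out and a kinase-dead AXL was put back. Which libraries belong to it was read from the genotype label alone. They are 3 libraries of the 29 in the series, 1 untreated (UT), 1 with erlotinib (E) and 1 with erlotinib and AF154, an antibody that activates AXL (EA). They were compared with the 21 libraries of 7 lines that carry AXL with an intact kinase lysine, namely WT and the Y-to-F mutants Y634F, Y643F, Y698F, Y726F, Y750F and Y821F, each at the same 3 treatments. These 7 are called the competent lines here, which says only that their kinase was not made inactive by design.

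The study seeded 300000 cells per dish and collected RNA after 24 h with E or EA, to ask which signals AXL sends while EGFR is inhibited. KD and the 7 competent lines share the same background, a PC9 population knocked out for AXL with CRISPR/Cas9 (KO), and the same lentiviral delivery. Each line is a transduced population sorted on GFP, not a clone, and by the study's own account only a minority of the transduced cells expressed AXL and knockout cells remained in each line, which dilutes any difference between lines. The parental line (PAR, with its own AXL) and KO are shown beside the comparison, and KO with EA was not analysed here. There was 1 library per line and treatment, so KD has no replicate of its own and every p-value below rests only on the spread among the 7 competent lines, since a single KD value adds none.

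AXL is a receptor tyrosine kinase of the TAM family, with TYRO3 and MERTK. Its ligand GAS6 brings receptors together, the kinase phosphorylates tyrosines of the receptor tail, and adaptors bound there feed the RAS-ERK and PI3K pathways. EGFR uses the same pathways, and in EGFR-mutant lung cancer cells AXL is known for carrying signal past an EGFR inhibitor such as erlotinib. A kinase-dead receptor can be made but cannot itself phosphorylate that tail or other proteins.

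The 7 designed changes are all in the intracellular part of AXL and are shown because they are the intended difference between the lines, of which WT carries none. The lines are also separately transduced populations that differ in AXL RNA level, as given below. The reference sequence around each codon was read from transcript AXL-201 of GENCODE release 29 (chromosome 19, plus strand, GRCh38), which encodes 894 residues in 20 exons. Capitals mark the codon that was changed. For kinase-dead AXL the study's supplement names K567R, in HCC827, another lung line, and the labels give no residue for KD, so the first sequence is the likely site and not a documented one. K567 lies in exon 14 with its codon at chr19:41248808-41248810, and it is the lysine that holds ATP in the kinase domain.
K567: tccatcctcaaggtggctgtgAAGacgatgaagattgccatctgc
Y634: agcttcctcctcTATtcccggctcggg
Y643: gaccagccagtgTACctgcccactcag
Y698: tccaagaagatcTACaatggggactac
Y726: gctgaccgtgtcTACaccagcaagagc
Y750: ggccaaaccccaTATccgggcgtggag
Y821: gacgaaatcctcTATgtcaacatggat
The tyrosine codons lie in exons 16 (Y634), 17 (Y643), 18 (Y698 and Y726), 19 (Y750) and 20 (Y821). The K567 and Y643 windows span an exon junction. The sequences are the reference and not the delivered constructs, which were not read here.

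The deposited values are in TPM, the share of each transcript in a library after scaling for its length, and were summed per gene. TPM has the same total in every library and keeps no record of the reads behind it, so the depth and the counting error of a value are unknown. Analysis was limited to 9085 genes averaging 10 TPM or more across all 29 libraries. Differences are on the log2(TPM + 1) scale, which understates the changes of low genes. In bulk RNA fewer cells of one state and less RNA per cell cannot be told apart. KD had 8726 genes at 10 TPM or more untreated, inside 8717 to 9072 of the 7 lines, but 8779 with E and 8800 with EA, fewer than in any of the 7 (at least 8821 and 8870). The 100 most abundant genes took 38.3% of its TPM with E and 38.7% with EA, more than in any of the 7 lines, and the part of this in the counts of genes below the range was not tested. Its mitochondrial share of TPM was 12.2% in UT, 13.6% in E and 14.8% in EA, within the range of the 7 lines at each treatment. The highest share among the 24 libraries, 17.4%, belonged to Y821F with EA. The label of an epithelial lung line was checked against 10 markers. CDH1, EPCAM, KRT7, KRT8, KRT18 and KRT19 were kept, and the 10 summed to between 8920 and 10798 TPM in KD and between 8158 and 11184 TPM in the 7 lines, whereas NKX2-1, a lung lineage factor, was under 1 TPM in all 24. All 5 neuroendocrine markers were under 1 TPM, and of the fibroblast, endothelial and immune markers only COL1A1 and CD68 were kept.

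The AXL transcript was checked first. AXL (ENSG00000167601, chr19:41219203-41261766, GRCh38) was 238 TPM in untreated KD, 379 TPM with E and 386 TPM with EA. The 7 lines ran from 217 to 428 TPM untreated (median 311), from 408 to 852 TPM with E (median 559) and from 338 to 849 TPM with EA (median 493). KD therefore lay at the low end, inside the range untreated and with EA and below all 7 with E. The nearest line was WT, at 217, 408 and 338 TPM in the same order. The mean difference of KD from the 7 lines was -0.52 ± 0.31 (SE, log2, limma adjusted p = 0.833). KO still had 92.4 TPM untreated and 79.3 TPM with E of AXL RNA, so the summed RNA level does not check the knockout. By transcript, AXL-205 was at most 0.192 TPM in KO and 33.4, 84.1 and 98.1 TPM in KD untreated, with E and with EA, whereas AXL-201 was 41.8 TPM in untreated KO and 48.4 TPM in untreated KD. AXL differed between E and EA by 0.03 in KD on the log2 scale and by -0.27 to -0.00 in the 7 lines.

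Across all genes KD was not the line that stood farthest from the others. Its root mean square log2 distance from the mean of the other 7 lines was 0.174 untreated, 0.18 with E and 0.217 with EA, against 0.167 to 0.247, 0.164 to 0.234 and 0.176 to 0.271 for the competent lines measured the same way. limma, with the 3 treatments of a line averaged so that treatment is balanced, called 0 of 9085 genes between KD and the 7 lines (0%), and 538 had an unadjusted p under 0.05. For the change from UT to E, from E to EA and from UT to EA it called 0 genes each (0%), with 348, 338 and 409 under an unadjusted p of 0.05. The median SE of a gene was 0.096 for the level and 0.169, 0.171 and 0.194 for the 3 changes, which sets the size that 1 line against 7 can resolve. For a single value the exact permutation test of 1 line against 7 cannot go below 0.125. With all 24 libraries taken as independent, a fit that overstates the number of replicates, 1 gene was called, HMGCS1, and 0 when libraries of a line were allowed to correlate. Because nothing else passed, the genes below are described by where the KD library lay against the range of the 7 lines, and their differences are given with SE and p.

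KD lay below all 7 lines at all 3 treatments for 142 genes (1.56%) and above all 7 for 13 (0.143%). Within a treatment, 14.9% of genes lay below and 8.29% above untreated, 19.6% below and 5.06% above with E, and 21.7% below and 6.25% above with EA. Beside this skew, the median gene of KD was at -0.03, -0.05 and -0.06 against the 7 lines on the log2 scale. With library medians centred, 35 genes lay below and 67 above at all 3 treatments. The genes below were also poorer in G and C. In 5 equal groups of genes ordered by GC content, with median GC from 38.7% to 61.7%, the share below all 7 lines at all 3 treatments was 3.08, 2.31, 1.27, 0.826 and 0.33% in turn. The Spearman rank correlation of GC content with the KD difference was 0.30 untreated, 0.05 with E and 0.20 with EA. For the 7 lines, each against the mean of the others, it ran from -0.43 to 0.41, -0.37 to 0.27 and -0.45 to 0.46. Gradients of this size were therefore not particular to KD. The part of GC content and of the library shift in these counts was not tested beyond the centred values. Leaving out any 1 of the 7 lines gave 157 to 210 genes below and 14 to 19 above, counts that cannot fall when a line is removed.

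Cholesterol and fatty acid synthesis was the gene list with the most members below all 7 lines at every treatment. Cells make cholesterol from acetyl-CoA by the mevalonate pathway, and SREBP2, the product of SREBF2, switches on most of its enzymes when membranes are short of sterol. Of 28 genes listed, 26 were measured and 7 of the 26 lay below all 7 lines at all 3 treatments, among them HMGCS1, FDPS, SQLE, CYP51A1, MSMO1 and SREBF2, against 1.56% of all genes. None lay above. The mean difference was negative for 26 of 26 members, as it was for 6446 of all 9085 genes, and 17 of the 26 were lower at an unadjusted p under 0.05, against 5.29% of all genes. After library medians were centred, 25 of 26 differences were still negative but only 2 members lay below all 7 lines at every treatment. Without Y643F, a step that can only keep or raise the count, the 7 became 12. The median over the list was -0.24 untreated, -0.22 with E and -0.34 with EA. Each of the 7 lines was likewise set against the mean of the other competent lines. These medians spanned -0.22 (Y643F) to 0.23 untreated, -0.14 to 0.14 under E and -0.14 to 0.16 under EA. The untreated value of KD was thus close to that of Y643F. Against the mean of all 7 lines, as for KD, KO had -0.17 untreated and -0.27 with E, and PAR had 0.17, -0.07 and 0.32.

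HMGCS1 (ENSG00000112972, chr5:43289395-43313512), which makes HMG-CoA at the head of the pathway, had the smallest p of all genes. It was 49.5 TPM in untreated KD, where the 7 lines ran from 60.1 to 90.3 TPM with a median of 74.2. With E it was 53.7 TPM against 59.7 to 83.9 (median 75.6), and with EA 47.7 TPM against 61.0 to 85.6 (median 81.1). KD was the lowest of the 8 lines at each treatment with no overlap, and the line next to it with E and with EA was Y821F. The mean difference was -0.58 ± 0.09 (SE, log2, limma unadjusted p = 3.38e-05, adjusted p = 0.307, 95% interval -0.77 to -0.38). KO, with no intact AXL, was at 65.6 TPM untreated and 54.8 TPM with E.

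MSMO1, the sterol demethylating oxidase of the later pathway, was 44.4, 62.3 and 61.2 TPM in KD untreated, with E and with EA. The 7 lines ran from 51.8 to 84.6 TPM (median 62.0), from 67.6 to 86.0 (median 78.3) and from 73.1 to 101 (median 85.6). KD lay below all 7 each time, and the mean difference was -0.43 ± 0.10 (SE, log2, limma adjusted p = 0.739). SQLE, squalene epoxidase, was 32.9, 30.9 and 30.4 TPM in KD. In the 7 lines it spanned 35.7 to 57.6 TPM untreated, 31.8 to 45.2 TPM under E and 37.3 to 49.0 TPM under EA, so that the gap was narrow with E and wider with EA.

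CYP51A1, lanosterol demethylase, was 30.5, 24.0 and 27.9 TPM in KD. The lowest of the 7 lines was 30.7 TPM untreated, 28.9 with E and 32.2 with EA, which leaves almost no gap in untreated cells. SREBF2 itself was 61.5, 110 and 106 TPM, under the lowest line at 64.2, 112 and 112 TPM. The mean differences of these genes were -0.36 ± 0.10 for CYP51A1 and -0.16 ± 0.07 for SREBF2 (SE, log2). FDPS, which makes farnesyl diphosphate, was 184, 229 and 217 TPM against lowest values of 199, 232 and 219, so the gap with E and with EA was small. With E, KO was lower than KD for MSMO1 (57.0 TPM), SQLE (27.9), SREBF2 (103) and FDPS (211) but not for CYP51A1 (25.5). Untreated, KO was above KD for each of these genes. PAR was lower than KD only for FDPS with E, at 194 TPM.

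**Figure D1:**
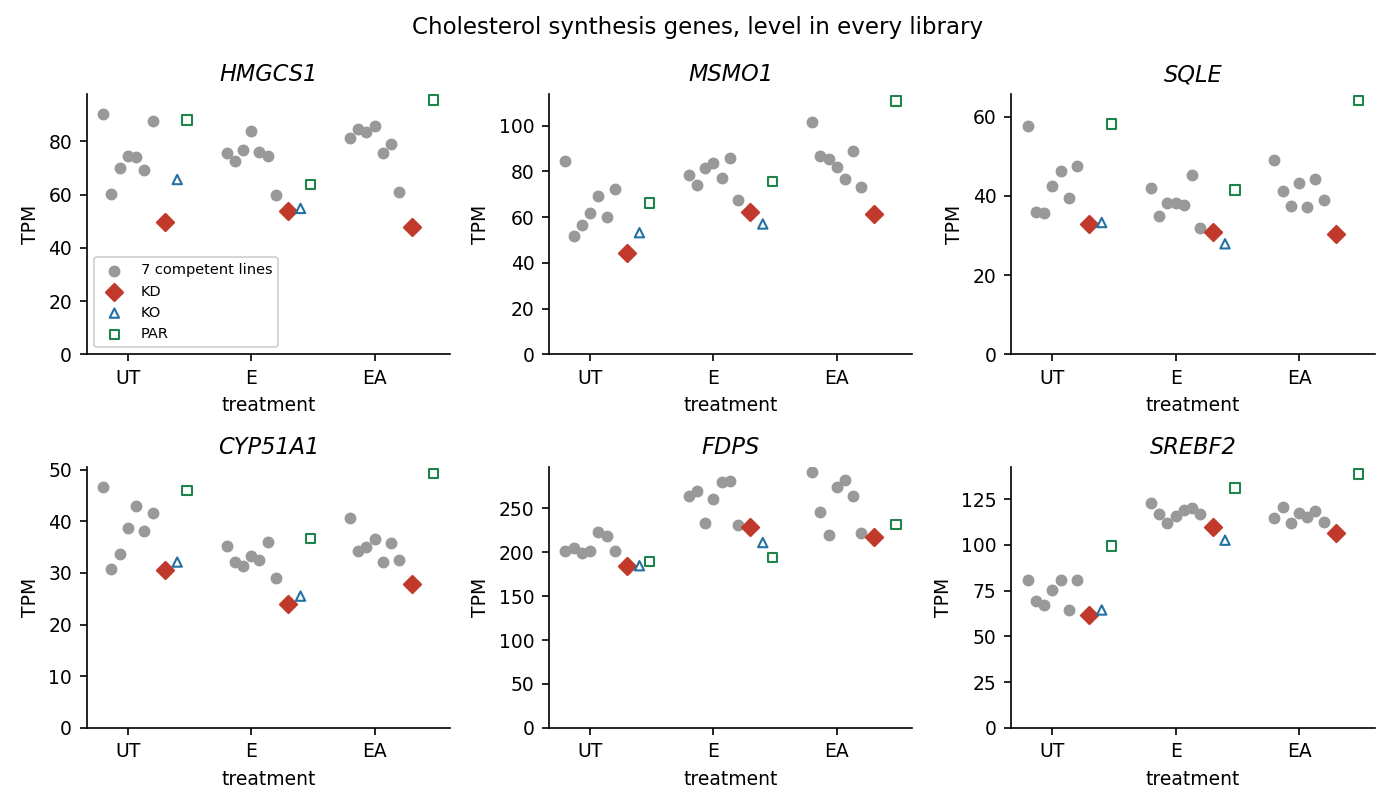
TPM of 6 cholesterol synthesis genes (y axis, from 0) in every library at each treatment (x axis). Grey points are the 7 competent lines, the red diamond is KD, the blue triangle KO and the green square PAR, 1 library each. In all 6 panels the KD diamond lies below the 7 grey points at each treatment, as for HMGCS1 with 49.5, 53.7 and 47.7 TPM.

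Over the whole list, with the members below at every treatment included, 18 of 26 were below all 7 lines with EA, 14 untreated and 14 with E. For all genes the shares below were 21.7% with EA, 14.9% untreated and 19.6% with E. ELOVL6, which lengthens fatty acids, was 40.8 TPM in untreated KD, within 34.6 to 54.8 TPM of the 7 lines. With EA it was 10.7 TPM against 19.9 to 29.6 (median 22.3), and its mean difference was -0.47 ± 0.11 (SE, log2, limma adjusted p = 0.739). FADS1, a fatty acid desaturase, was 31.4 TPM with EA against 42.3 to 50.5 (median 45.9). SCD, the stearoyl-CoA desaturase, was inside the range at all 3 treatments, and so were ACACA, SC5D and FADS2. From E to EA the median of the list was -0.02 in KD and 0.04 to 0.17 in the 7 lines, with 9 of 26 members below the range and 1, CYP51A1, above it. Of all genes, 11.5% had a KD change below the range and 9.43% above it.

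The promoters of HMGCS1 and MSMO1 are shown because they had the smallest p among the 7 members below at every treatment. They were taken from RefSeq on GRCh38.p14, 250 bases before to 50 after the transcription start, in the direction of the gene, and capitals mark CCAAT or its reverse complement ATTGG, the box bound by NF-Y, a factor that works beside SREBP. HMGCS1 has 2 promoters in the table and the one shown holds 2 matches.
HMGCS1 chr5:43313363-43313662, minus strand: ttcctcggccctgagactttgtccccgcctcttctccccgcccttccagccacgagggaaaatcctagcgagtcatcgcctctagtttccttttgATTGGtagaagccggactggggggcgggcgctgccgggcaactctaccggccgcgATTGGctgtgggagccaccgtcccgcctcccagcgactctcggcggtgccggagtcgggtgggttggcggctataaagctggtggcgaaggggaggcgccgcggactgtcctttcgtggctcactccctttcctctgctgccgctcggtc
MSMO1 chr4:165327419-165327718, plus strand: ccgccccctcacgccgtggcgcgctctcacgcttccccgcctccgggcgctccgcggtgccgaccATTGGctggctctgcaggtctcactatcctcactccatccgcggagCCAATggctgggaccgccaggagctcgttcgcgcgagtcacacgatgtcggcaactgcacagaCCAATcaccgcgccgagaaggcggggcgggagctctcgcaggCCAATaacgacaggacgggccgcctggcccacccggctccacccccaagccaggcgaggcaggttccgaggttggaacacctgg
Of the 26 members 20 had a promoter in the table, and 21 of their 29 promoters (72.4%) held CCAAT on either strand, against 34.6% of all 35116 promoters of the same length. The strict sterol element letters CACCCCAC were in 1 of the 29 and in 2.79% of all promoters. Over the 142 genes below at all 3 treatments, 36.2% of promoters held CCAAT. A match is only a run of letters in this window.

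Among the other genes below at all 3 treatments, those with the largest mean difference were picked after their values were seen. CDCA7, a MYC and E2F target tied to the cell cycle, had the lowest mean difference at -0.63 ± 0.15 (SE, log2, limma adjusted p = 0.739). It was 46.6 TPM in untreated KD against 47.3 to 56.2 (median 47.8), 2.37 TPM with E against 3.03 to 5.80 (median 4.63) and 2.20 TPM with EA against 4.46 to 7.93 (median 6.41). The untreated gap was therefore small and the gap with EA large. LIPG, an endothelial lipase that frees fatty acids from lipoproteins, was 35.3, 4.90 and 5.17 TPM in KD and at least 40.1, 6.96 and 6.78 TPM in the 7 lines. LPIN1, a phosphatidate phosphatase of lipid synthesis, was 10.5 TPM with E and 9.21 TPM with EA against at least 12.4 and 13.9.

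SPDL1, which recruits dynein to kinetochores, was 67.6, 24.8 and 20.4 TPM in KD, and the 7 lines were at 75.5 TPM or more untreated, 25.4 or more with E and 33.8 or more with EA. Its mean difference was -0.50 ± 0.10 (SE, log2, limma unadjusted p = 0.000437, adjusted p = 0.686). MCM10 and CLSPN, which act at replication forks, were below at all 3 treatments with mean differences of -0.48 ± 0.20 and -0.48 ± 0.17. The others among the 12 lowest were C2orf92, SHISAL2A, TSPAN2 and ST3GAL6. Beside 1.56% of all genes, 3 of 23 focal adhesion genes (VCL, ACTN1 and ITGB5) and 2 of 18 YAP/TAZ targets (CCN2 and F3) lay below everywhere. So did CRK among 24 AXL-proximal adaptors, MTHFD2 among 20 genes of the ATF4 list and HSP90B1 among 16 of the unfolded protein response. After library medians were centred, each of these lists had 0 members below all 7 lines at every treatment, against 35 of all 9085 genes. VCL, which links integrins to actin, was 111, 129 and 133 TPM in KD against at least 116, 133 and 138 TPM, with a mean difference of -0.21 ± 0.07.

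The 13 genes above all 7 lines at all 3 treatments were led by H4C11, a histone H4 gene, at 16 TPM in untreated KD against 3.95 to 11. Its reads could be split with near-identical histone copies, so its value is uncertain. PI3, the elastase inhibitor elafin, was 31.7, 23.4 and 22.6 TPM against highest values of 28.0, 19.5 and 20.1 TPM, with a mean difference of 0.54 ± 0.12 (SE, log2, limma unadjusted p = 0.000604, adjusted p = 0.686). LOXL4, a collagen crosslinking oxidase, was 7.17 TPM untreated, 63.2 with E and 69.6 with EA against highest values of 5.70, 59.5 and 54.6 TPM. In PAR, PI3 was between 32.3 and 35.2 TPM and LOXL4 between 0.856 and 6.14 TPM, so the parental line was high for the first and low for the second. RXRA, the retinoid X receptor, had 60.1, 56.7 and 59.6 TPM in KD against at most 54.7, 53.9 and 54.9. The remaining ones were C5orf46, EPN3, H2AJ, ZNF524, MGST2, CDC42EP2, AXIN1, CDIPT and RPL13A. Cytosolic ribosomal protein genes had list medians of 0.05, 0.07 and 0.08. At all 3 treatments 1 of 76 lay above, against 0.143% of all genes, and after centring 7 of 76, against 67 of all 9085 genes.

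**Figure D2:**
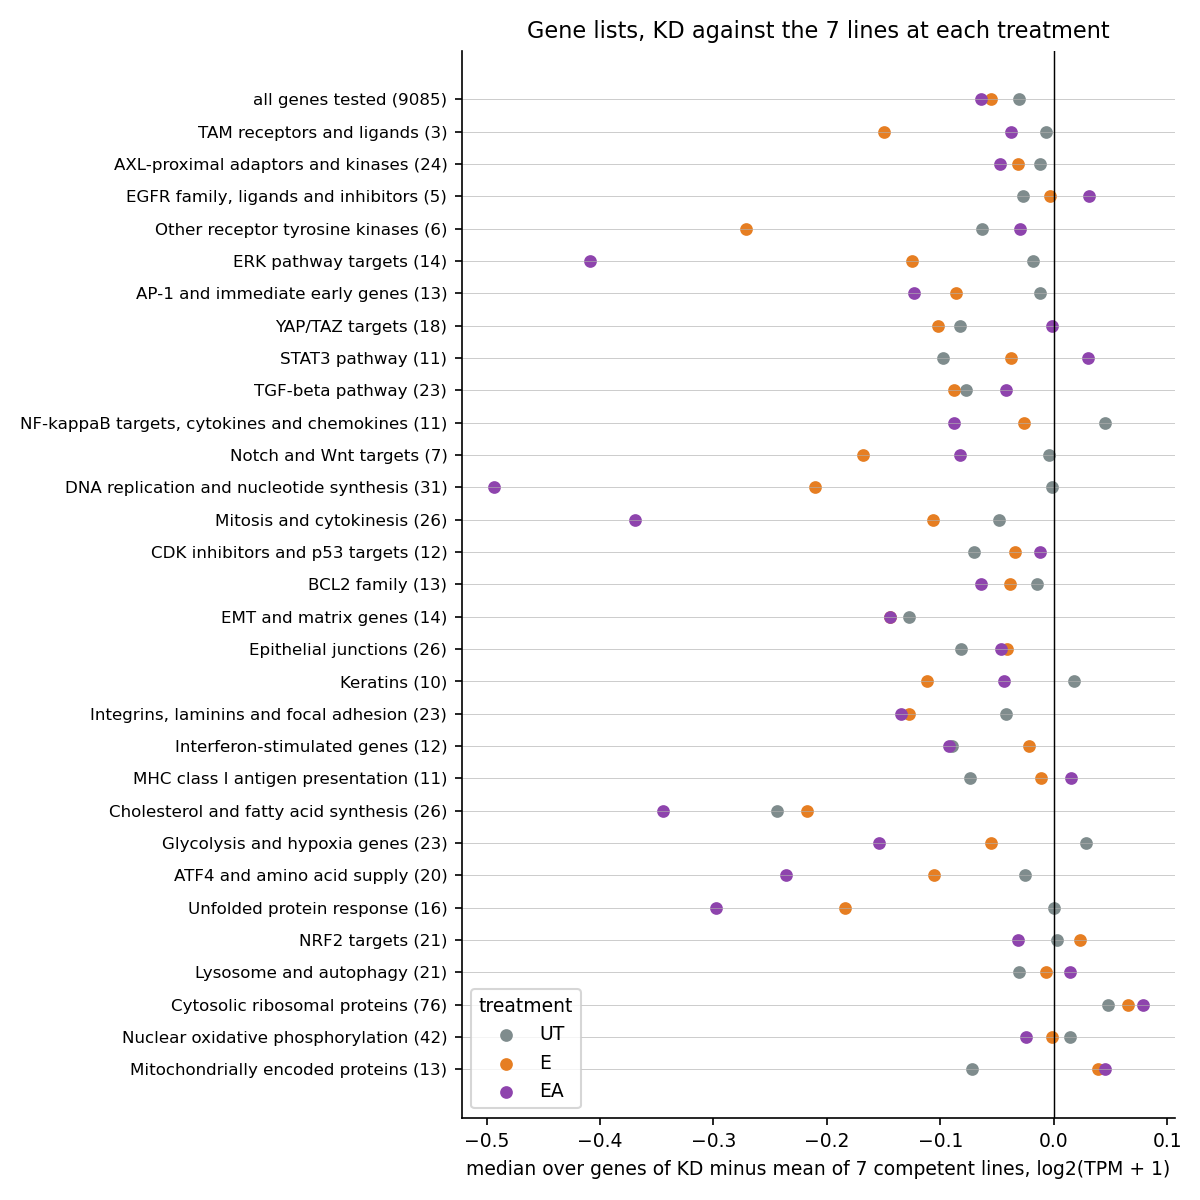
For 30 gene lists and for all genes tested (y axis, number of measured genes in brackets), the median over genes of KD minus the mean of the 7 competent lines on the log2(TPM + 1) scale (x axis), as 1 point per treatment. The cholesterol list is left of 0 at all 3 treatments, between -0.34 and -0.22, whereas the replication, mitosis, ERK target and unfolded protein response lists lie near 0 untreated and farthest left with EA.

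In the lists that describe dividing cells, unlike the cholesterol list, the median of untreated KD was close to 0, though the difference between the lists was not tested. Genes of DNA replication and nucleotide synthesis (31 of 33 measured) had a median difference of -0.00 untreated, -0.21 with E and -0.49 with EA. Those of mitosis and cytokinesis (26 of 27 measured) had -0.05, -0.11 and -0.37. With EA 22 of 31 replication genes and 23 of 26 mitosis genes lay below all 7 lines, against 21.7% of all genes. With library medians centred the EA medians were -0.43 and -0.30. In both lists the lowest of the 7 lines with EA was Y821F. Set against the mean of the other competent lines it was at -0.33 for replication and -0.13 for mitosis. With E the lowest competent line, set the same way, was at -0.24 for replication, lower than KD, and at -0.10 for mitosis. Against the mean of all 7 lines with E, KO had -0.21 for replication and -0.10 for mitosis, and PAR had -0.45 and -0.33.

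CDC6, which loads the replicative helicase, was 54.2 TPM in untreated KD, within 50.3 to 63.5 TPM (median 54.1) of the 7 lines. With E it was 4.85 TPM against 6.13 to 10.1 (median 7.47), and with EA it was 6.05 TPM against 9.03 to 14.0 (median 11.9). KD was inside the range untreated and below it under both treatments, while KO with E, at 4.14 TPM, and PAR with E, at 3.79 TPM, were lower than KD. MCM6, a subunit of that helicase, was 46.0 TPM untreated and 6.06 TPM with E, inside the range both times. With EA it was 6.10 TPM against 7.71 to 12 (median 11.2).

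TYMS, thymidylate synthase, was 181 TPM in untreated KD against 166 to 186 (median 173), 23.6 TPM with E against 24.5 to 44.4 (median 34.5) and 30.6 TPM with EA against 33.1 to 56.5 (median 48.9). It was thus inside the range untreated and the lowest line under both treatments, with Y821F next to it in each. TOP2A, the topoisomerase of dividing cells, was 126 TPM in untreated KD against 124 to 162 (median 136). With E it was 50.5 TPM, under the lowest of the 7 lines by less than the printed digits, and with EA it was 51.3 TPM against 65.9 to 76.7 (median 69.2). CDK1, the mitotic kinase, was 56.6 TPM with E and 54.2 TPM with EA in KD against 70.1 to 91.8 TPM with EA in the 7 lines. The mean differences over treatments were -0.49 ± 0.14 for CDC6, -0.35 ± 0.14 for TYMS, -0.29 ± 0.14 for MCM6 and -0.23 ± 0.07 for TOP2A (SE, log2), with limma adjusted p from 0.775 to 0.814.

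**Figure D3:**
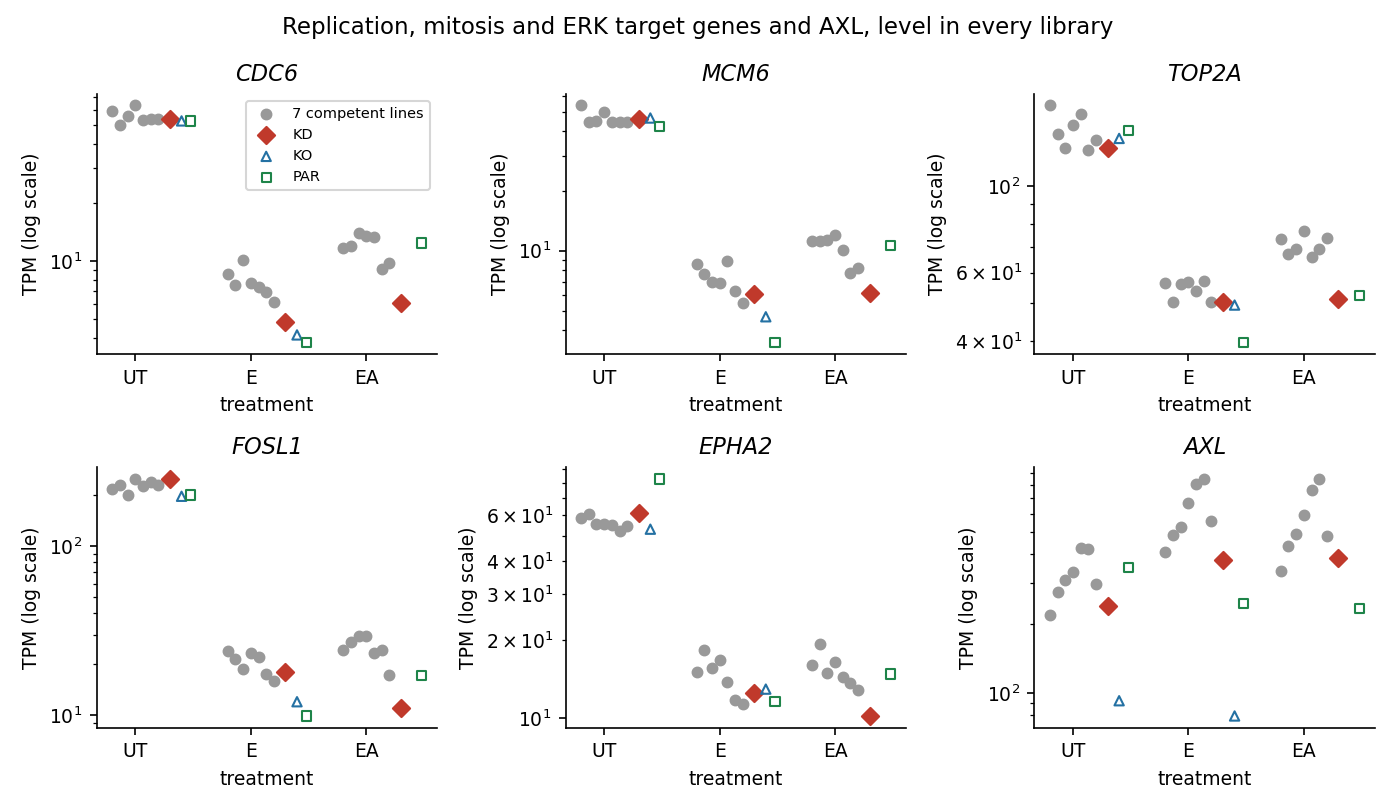
TPM (y axis, log scale) of CDC6, MCM6, TOP2A, FOSL1, EPHA2 and AXL in every library at each treatment (x axis). Grey points are the 7 competent lines, the red diamond KD, the blue triangle KO and the green square PAR, 1 library each. With EA, the KD diamond lies below all grey points for the first 5 genes, for example at 6.10 TPM for MCM6 against 7.71 to 12, and inside them for AXL.

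The change from E to EA compares cells with and without the activating antibody under the same inhibitor. Over all genes 11.5% of KD changes lay below the range of the 7 lines and 9.43% above it. In the replication list 12 of 31 lay below and 0 above, and the median change was 0.03 in KD against 0.16 (WT) to 0.39 (Y698F) in the 7 lines and 0.72 in PAR. In the mitosis list 14 of 26 lay below and 0 above, with a median change of 0.02 in KD against 0.17 (WT) to 0.37 (Y643F) and 0.50 in PAR. Some replication genes, such as CDC6 and MCM6, passed the filter through their untreated level and were near or under 10 TPM with E and EA. When only genes with at least 10 TPM in every library were kept, 5 of 19 replication genes (26.3%) lay below the range, against 11.8% of all 7435 genes kept. Each change shares the E library with the change from UT to E, so the changes are not independent of each other.

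ERK pathway targets had the same order of treatments. The list holds genes switched on by ERK, which EGFR and AXL both feed, and 14 of 28 passed the filter, several of them, such as ETV5, only through their untreated level. The median difference of KD was -0.02 untreated, -0.13 with E and -0.41 with EA. The competent lines, each set against the mean of the others, spanned -0.13 to 0.24 with E and -0.20 to 0.17 with EA. KD was thus inside that spread with E and below it with EA. Against the mean of all 7 lines, KO had -0.18 with E, and PAR had -0.24 with E and -0.22 with EA. From E to EA the list median was -0.25 in KD against -0.14 (Y821F) to 0.26 (Y643F) in the 7 lines, with 5 of 14 members below the range (DUSP4, ETV4, FOSL1, EPHA2 and TGFA) and 0 above. With a mean of at least 1 TPM as the filter 10 of 26 members lay below, against 11.3% of all genes so kept, and with at least 10 TPM in every library 3 of 7, against 11.8%.

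FOSL1, an AP-1 subunit whose transcription and stability follow ERK activity, was 249 TPM in untreated KD, above 200 to 249 TPM (median 229) of the 7 lines by less than the printed digits. With E it was 18.1 TPM, inside 15.9 to 23.9 (median 21.5). With EA it was 11.1 TPM against 17.3 to 29.2 (median 24.4). KD was thus at the top of the range untreated and under it with EA, and its change from E to EA was -0.65 where the 7 lines ran from 0.03 to 0.62. The difference of the changes was -0.93 ± 0.21 (SE, log2, limma unadjusted p = 0.00136, adjusted p = 1). EPHA2, an ephrin receptor induced by ERK, was 10.2 TPM with EA against 12.8 to 19.3 (median 15) and 12.6 TPM with E, inside the range.

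ETV4 and ETV5, ETS factors induced by ERK, were 3.27 and 1.5 TPM in KD with EA. The lowest of the 7 lines was 3.49 TPM for ETV4 and 1.83 TPM for ETV5, so KD was just under the range. With E both were inside it, ETV4 at 5.92 TPM and ETV5 at 2.72 TPM. PHLDA1 was 1.81 TPM with E against 2.17 to 2.88 and 2.0 TPM with EA against 2.37 to 3.24. CCND1 and MYC, which drive entry into the cycle, were inside the range at all 3 treatments, with mean differences of -0.05 ± 0.07 and -0.01 ± 0.10 (SE, log2). The 95% interval was -0.20 to 0.11 for CCND1 and -0.22 to 0.21 for MYC. The YAP targets CCN1 and ANKRD1 were also inside the range throughout, at -0.08 ± 0.08 and -0.22 ± 0.20. CCN2 was under the lowest line by a small margin at each treatment, with a mean difference of -0.19 ± 0.12. Below the filter, and so not tested, DUSP6 and SPRY4, feedback inhibitors of the ERK pathway, and EGR1, an immediate early gene, were low under both treatments. DUSP6 was 14.5 TPM untreated, 1.27 TPM with E and 0.601 TPM with EA in KD, against 8.73 to 16.8, 0.412 to 0.988 and 0.336 to 1.40 TPM. It was thus above all 7 lines with E and inside their range with EA, and SPRY4 had the same placing, at 0.70 TPM with E against at most 0.68.

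The promoters of CDC6 and MCM6 are shown because both carry the letters TTTGGCGC, in capitals here, one form of the site bound by E2F, the factor that RB holds back until a cell enters S phase.
CDC6 chr17:40287629-40287928, plus strand: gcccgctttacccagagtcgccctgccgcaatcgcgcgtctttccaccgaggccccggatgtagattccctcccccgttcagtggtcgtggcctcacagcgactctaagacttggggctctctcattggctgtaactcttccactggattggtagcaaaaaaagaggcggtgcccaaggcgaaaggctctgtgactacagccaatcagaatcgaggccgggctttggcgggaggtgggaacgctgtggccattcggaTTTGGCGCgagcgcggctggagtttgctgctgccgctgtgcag
MCM6 chr2:135876394-135876693, minus strand: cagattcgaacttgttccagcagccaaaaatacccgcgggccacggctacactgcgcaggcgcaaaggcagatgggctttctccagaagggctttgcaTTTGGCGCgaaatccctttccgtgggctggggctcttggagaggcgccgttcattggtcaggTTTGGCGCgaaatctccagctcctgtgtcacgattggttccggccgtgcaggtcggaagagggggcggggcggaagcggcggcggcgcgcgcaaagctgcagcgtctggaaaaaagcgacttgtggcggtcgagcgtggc
TTTCCCGC or TTTGGCGC, on either strand, was in 15 of 35 promoters of the replication list (42.9%), in 0 of 24 of the mitosis list and in 2.27% of all promoters. CCAAT was in 60% of the replication and 79.2% of the mitosis promoters.

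For the change from UT to EA, over all genes 15.8% of KD changes lay below the range of the 7 lines and 8.32% above. In the replication list 23 of 31 lay below, in the mitosis list 22 of 26, in the unfolded protein response list 12 of 16, in the glycolysis list 11 of 23 and among ERK targets 7 of 14. None of the first 3 lists had a member above. At an unadjusted p under 0.05, 15 of 31 replication genes had a lower change in KD, against 3.16% of all genes. With at least 10 TPM in every library 14 of 19 replication genes and 2 of 7 ERK targets lay below, against 15.8% of all genes so kept, and with PAR added to the 7 lines 3 of 14 ERK targets did. For the replication list the KD median was still inside the range of the 7 lines, at -1.86 against -1.90 to -1.35, with Y821F at the lower end. For mitosis the KD median was -1.34 against -1.07 to -0.90.

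From UT to E, 15.3% of all genes lay below the range and 8.53% above it. Here 13 of 31 replication genes and 3 of 26 mitosis genes lay below, and the KD medians, -1.84 and -1.31, were inside the ranges of -1.97 to -1.64 and -1.34 to -1.21. For ERK targets the KD median was -1.82 against -1.73 to -1.35, with 4 of 14 members below and TGFA above. PAR had larger drops than KD in all 3 lists, at -2.17, -1.68 and -2.22. KO had larger drops than KD for replication and mitosis, at -2.01 and -1.36, and a smaller one for ERK targets, at -1.61.

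In the unfolded protein response list, whose genes fold and quality-check proteins in the endoplasmic reticulum, KD had medians of -0.00 untreated, -0.18 with E and -0.30 with EA. HSP90B1, an endoplasmic reticulum chaperone, was 538, 405 and 414 TPM in KD against lowest values of 554, 429 and 449 TPM. HSPA5, the chaperone BiP, was 255 TPM with E and 247 TPM with EA against at least 271 and 279, and inside the range untreated. XBP1, a transcription factor of the response, was 15.8 TPM with E and 17.0 TPM with EA against at least 18.4 and 20.2. DDIT3, a stress-induced factor that can lead to cell death, was inside the range at all 3 treatments.

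**Figure D4:**
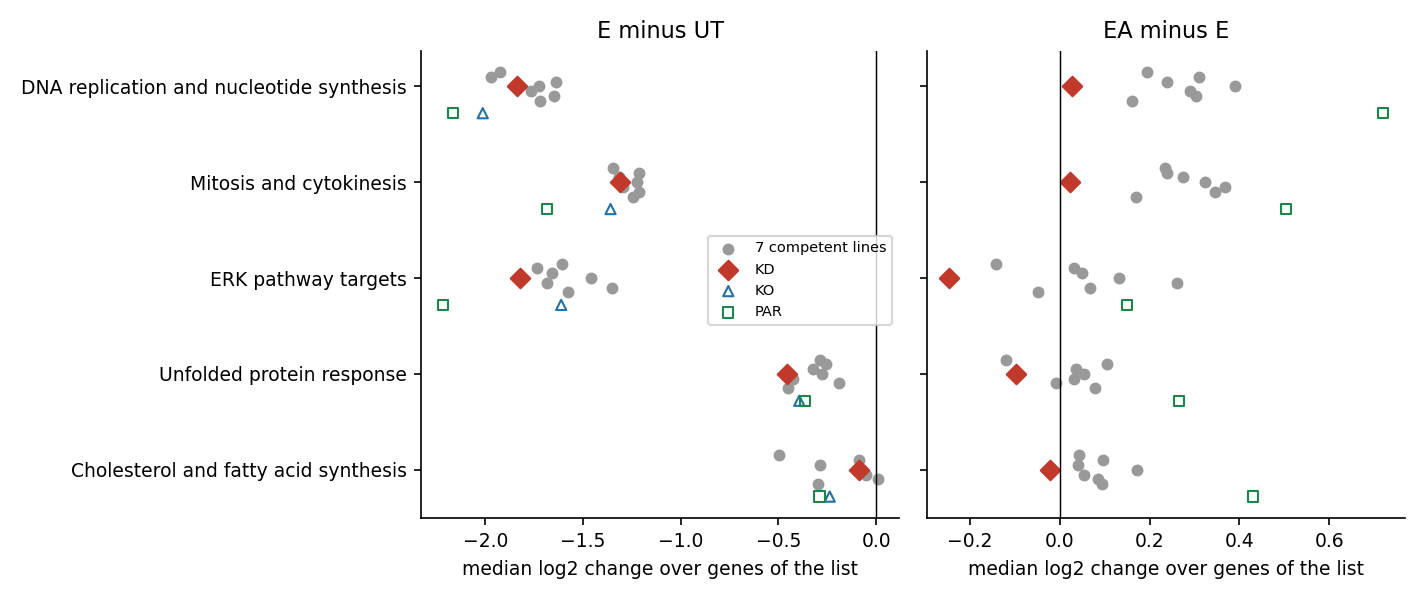
Median log2 change over the genes of 5 lists (y axis), from UT to E on the left and from E to EA on the right (x axes). Grey points are the 7 competent lines, the red diamond KD, the blue triangle KO and the green square PAR. From E to EA the KD diamond lies left of all grey points for replication (0.03 against 0.16 to 0.39), mitosis, ERK targets and cholesterol synthesis and among them for the unfolded protein response.

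The first principal component of the 24 libraries, which held 76.0% of the variance, separated untreated from treated cells. From UT to E, KD moved by -71.3 units on it and the 7 lines by -70.5 (Y821F) to -61.8 (Y643F). Between E and EA all 7 lines moved back toward the untreated side, by 2.03 units in WT to 7.04 in Y698F, and KD moved by -0.577. The KD libraries with E and EA therefore had nearly the same score, at -25.9 and -26.5.

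**Figure D5:**
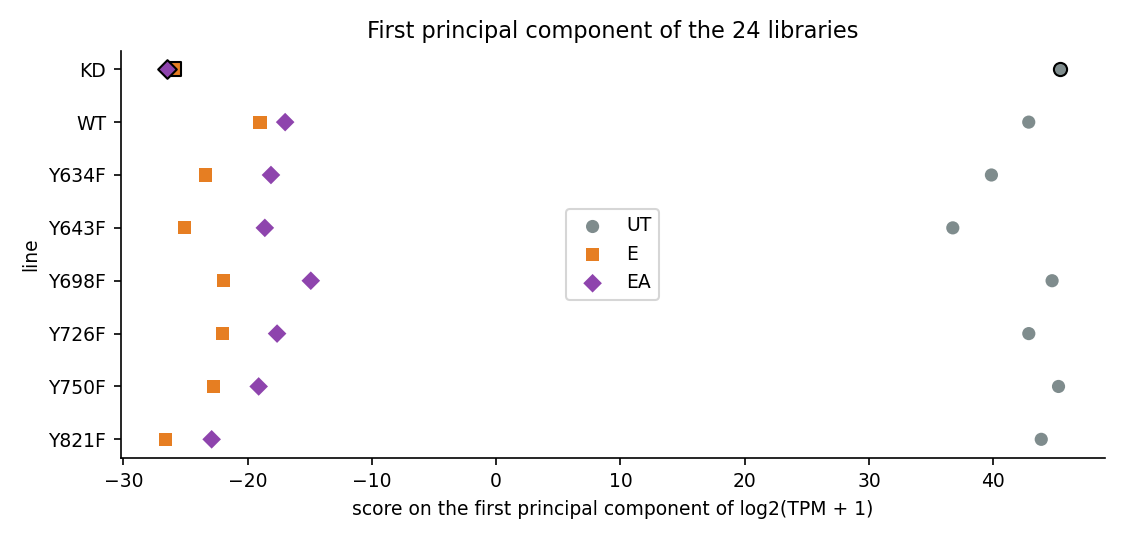
Score of each library on the first principal component (x axis, arbitrary units) for KD and the 7 competent lines (y axis), with circles for UT, squares for E and diamonds for EA. In the 7 lines the diamond lies right of the square, whereas in KD they overlap at -25.9 and -26.5.

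Single genes with the smallest p for a change are named by rule and none passed. For the change from E to EA the first was UIMC1, a BRCA1-complex protein that binds ubiquitin at DNA breaks. It was 22.7 TPM in untreated KD, 23 with E and 13.3 with EA, and the 7 lines ran from 22.8 to 27.1, from 15.5 to 20.5 and from 17.3 to 21.6 TPM. KD was thus above the range with E and below it with EA, and the difference of the changes was -0.91 ± 0.13 (SE, log2, limma unadjusted p = 3.1e-05, adjusted p = 0.282). SVIP, an inhibitor of endoplasmic reticulum degradation, was 26.2, 21.1 and 8.08 TPM in KD against 22.6 to 29.3, 13.2 to 20.9 and 15.6 to 21.3. Its change from UT to EA was -1.58 against -0.76 to -0.30, a difference of -1.08 ± 0.16 (limma adjusted p = 0.502). A single library can give such values, and there was no second KD library to set beside them.

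The other genes the rule names for E to EA were SLC9A7, TECPR1 and FOSL1 with changes below the range, and IFT122, HINFP, RAB11FIP4, ODF3B and PDLIM2 with changes above it. IFT122, a protein of cilium transport, changed by 1.03 in KD against -0.27 to 0.27 in the 7 lines (limma adjusted p = 0.897). For UT to EA they were PLEK2, PLAUR, DEPDC1B and COPS3 below and CLUAP1, PNPLA3, IFT122, FAM228B and the unnamed ENSG00000227775 above. PLAUR, the urokinase receptor, was 72.0 TPM in untreated KD, inside 55.2 to 77.8 TPM, 37.3 TPM with E against 38.9 to 53.6 and 31.2 TPM with EA against 41.1 to 54.7. It was inside the range untreated and below it under both treatments. For UT to E they were ZNF677, ZNF827, YTHDF3, VPS45 and IL4R below and RNA5SP187, CNOT10, USP53, HYAL3 and FDXR above, each with an adjusted p of 1.

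Other signalling lists are given by their medians and counts. Among 24 measured AXL-proximal adaptors and kinases 1 lay below at all 3 treatments and 0 above, with medians of -0.01, -0.03 and -0.05, beside -0.03, -0.05 and -0.06 for all genes. YAP/TAZ targets (18 measured) had medians of -0.08, -0.10 and -0.00, with 6 of 18 below all 7 lines untreated, 4 with E and 3 with EA. In the TGF-beta pathway (23 measured) the medians were -0.08, -0.09 and -0.04, with 7, 7 and 4 members below. For all genes these shares were 14.9%, 19.6% and 21.7%. The STAT3 pathway (11) had medians of -0.10, -0.04 and 0.03 and the BCL2 family (13) -0.01, -0.04 and -0.06. Epithelial junction genes (26), keratins (10), EMT and matrix genes (14), interferon-stimulated genes (12), NRF2 targets (21) and lysosome and autophagy genes (21) had 0 members outside the range at all 3 treatments. Of all genes 1.56% lay below and 0.143% above at all 3, so lists of this size hold few such members or none. After centring, 2 of 21 NRF2 targets lay above at all 3 treatments. None of these lists had a gene called by limma, which called 0 genes in all.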

How the data were processed

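RNA-seq of 29 PC9 libraries was analysed. The authors deposited transcript-level TPM values, and the submitters' processing notes name kallisto and GRCh38. Tool versions, the annotation release and strand handling are not given in the sources used here, and reads of overlapping genes cannot be told apart. Of 188753 transcripts 169797 were matched by identifier to GENCODE 29 and summed into 35579 genes, and 18956 were not used. TPM keeps no depth, so no counting error was set. Genes with a mean under 10 TPM were left out and log2(TPM + 1) was taken.

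For each gene the 3 treatments of a line were averaged, or subtracted for a change, and KD was compared with the 7 lines by limma 3.58.1 (R 4.3.3, lmFit and eBayes with trend, two-sided, Benjamini-Hochberg adjustment, threshold 0.05) on 8 line values. The procedure was tested on simulated data. Other steps used Python 3.11.15 with pandas 2.3.3 and numpy 2.4.6, and figures matplotlib 3.10.9. A gene was outside the range when KD lay below or above all 7 lines.

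The comparison of KD and the gene lists were chosen with earlier results of these data known, although the label alone says which libraries are KD. The rule named, for each change, the 5 genes with the smallest p and a KD change below the range and the 5 above it, plus a fixed set of AXL, ERK, YAP and replication genes. The genes outside the range at all 3 treatments were named after their values were seen. Alternatives covered the filter, pseudocount, scaling, the lines entered and leaving out each line. KO with EA was not analysed here, and some members of the gene lists are counted but not reported singly here.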

Additional observations from a re-analysis of the deposited data

Results flagged for a closer look

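In 9 of 123 groups, each a named gene at 1 treatment in the 7 competent lines, 1 line stood apart from the other 6 by more than Dixon's critical gap allows, which chance gives in about 1 group in 20. Y821F was the line in 5 of them. HMGCS1 was 59.7 TPM in Y821F with E and 61.0 TPM with EA, low in both and nearest to KD. TYMS was 33.1 TPM and FOSL1 17.3 TPM in Y821F with EA, also low. H2AJ was high at 406 TPM in Y821F with E and low at 170 TPM in untreated WT. ETV5 was high at 11.6 TPM in Y634F with E, LIPG low at 40.1 TPM in untreated Y750F, and LPIN1 high at 22.7 TPM in Y726F with E.

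In 2 of 90 list changes KD had the opposite sign to all 7 lines, a difference that was not tested. The median change of the cholesterol and fatty acid list from E to EA was -0.0216 in KD and 0.04 to 0.17 in the 7 lines. The TAM receptor and ligand list, with 3 genes measured, was at 0.0070 in KD and from -0.24 to -0.0046 in the 7 lines.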

How the results depend on the processing

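limma called 0 genes in each comparison under the other settings tried, with these exceptions. With no filter it called 200 genes for the level and 279, 237 and 253 for the changes from UT to E, E to EA and UT to EA, of which 195, 265, 227 and 240 had a mean under 1 TPM. With all 24 libraries as independent it called 1 (HMGCS1), and at a mean of at least 1 TPM 1 for E to EA (MAGI2). Alternatives for counts outside the range were chosen after seeing the data. Genes below at all 3 treatments numbered 35 with medians centred, 41 with quantile normalization and 65 with PAR added, and genes above 67, 37 and, with no filter, 25. The 7 cholesterol genes became 2 with either scaling. For E to EA, replication genes below were 5 of 19 with at least 10 TPM in every library, and ERK targets 3 of 7, or 10 with a mean of at least 1 TPM (of 26) or no filter (of 28). From UT to EA, replication genes were 14 and ERK targets 2 with at least 10 TPM in every library, and ERK targets 11 with no filter and 3 with PAR.

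Leaving out each line in turn gave 0 to 0 limma calls, 157 to 210 genes below and 14 to 19 above at all 3 treatments, and 7 to 12 cholesterol genes (12 without Y643F). For changes it gave 1530 to 1656 below and 849 to 1012 above (UT to E), 1154 to 1355 and 962 to 1040 (E to EA), and 1520 to 1859 and 829 to 985 (UT to EA). It gave 12 to 16 replication, 14 to 17 mitosis and 5 to 7 ERK genes from E to EA, and from UT to EA 23 to 25, 22 to 23, 7 to 9 and, for the unfolded protein response, 12 to 14. Counts outside the range can only stay or rise when a line is left out. Their ranges here therefore say nothing of how firm they are.

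Of 1682 recomputed values for 81 named gene results 17 changed sign, and the cause was not tested. With PAR added, ANKRD1 was 0.0103, CCN1 0.0016, CCND1 0.0288 and MYC 0.0517. Centred, CCND1 was 0.0120 and MYC 0.0542, and MYC was 0.0331 with quantile normalization, 0.0130 with UT only, 0.0083 with EA only and 0.0107 with E left out. ETV4 was 0.0953 with E only and 0.0205 with EA left out, and with UT only TYMS was 0.0531 and FOSL1 0.14, against -0.37 over the 3 treatments. Leaving out a line moved MYC between -0.0241 and 0.0291, its change from E to EA between -0.0114 and 0.12, and that of CCN2 between -0.0006 and 0.0479. Of 1080 recomputed list medians 19 moved by more than the spread between lines.

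Changes were taken within a line, which pairs its treatments, and a replicate block could not be fitted because the labels give no replicate numbers. TPM without depth limits what can be said of low genes.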
